A study of Homo sapiens with 6 samples.

Results

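The 39 genes described here encode the machinery that licenses, starts and carries out DNA replication, with the drivers of the step from G1 into S phase. They were taken by symbol from a fixed list after the Ensembl identifiers were matched to symbols. All 39 were found among the 16574 genes of the deposited tables, and all 39 passed the filter on low values used for testing. RNA was sequenced from Nthy-ori 3-1 cells, an immortalised human line labelled as normal thyroid follicular epithelium of WT genotype, in 6 libraries. Of these, 3 came from cells exposed for 27 days to 2.5 µM BDE209 (decabromodiphenyl ether, a brominated flame retardant). The other 3 came from cells kept as long in the same volume of DMSO, the solvent. The series is about long exposure to BDE209 and the growth of thyroid cells, a setting in which replication genes are a natural readout. It is a single cell line, and nothing in the labels says that the replicates were separate cultures, so that the p-values below measure only the spread between these libraries.

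As background, each replication origin is bound in G1 by the origin recognition complex, on which CDC6 and CDT1 load the ring-shaped MCM2 to MCM7 helicase. The kinase CDC7 with its partner DBF4, and cyclin E with its kinase, then turn the loaded rings into active helicases by adding CDC45 and the GINS complex. Most of these genes are transcribed in late G1 by E2F factors, which the retinoblastoma protein holds back, and their summed level is widely used as a sign of proliferation. The Nthy-ori 3-1 line was immortalised with the large T antigen of SV40, a viral protein known to bind the retinoblastoma protein, and BDE209 and DMSO cells both carry it.

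Many members have a promoter feature that the choice of genes did not use directly. Since most genes of this kind are transcribed by E2F factors, the feature is not independent of the choice. RefSeq promoters (GRCh38.p14, 250 bases before to 50 after the gene start, the first listed start of each gene) were found for 35 of the 39 members. The E2F letters TTTCCCGC, TTTCGCGC, TTTGCCGC or TTTGGCGC, on either strand, stood in 17 of these 35 promoters, or 48.6%, against 5.7% of the promoters of 9192 tested genes. The 5 letters CCAAT stood in 57.1% of the members' promoters and in 36.9% of those of all tested genes, while the letters TTTGAA or TTTAAA of the CHR element stood in 14.3% and 15.2%. A match is a string of letters, not a bound site. In 1 member an E2F match overlapped a match of another motif. Of the members, 3 had 2 E2F matches apart from each other (MCM3, MCM6 and MCM7).

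Promoters of 5 members are shown because they frame the results below. MCM6 has 2 matches, PCNA is the most abundant member, TYMS and CDC25A are the members whose BDE209 and DMSO values did not overlap, and POLD1, without a match, had a small p. The 250 bases before the gene start are given 5′ to 3′ on the gene's strand, with the E2F letters in capitals and matches that overlap on both strands joined. The coordinates are those of RefSeq, since no human build is named for the deposited tables.

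MCM6, chr2:135876444-135876693, minus strand: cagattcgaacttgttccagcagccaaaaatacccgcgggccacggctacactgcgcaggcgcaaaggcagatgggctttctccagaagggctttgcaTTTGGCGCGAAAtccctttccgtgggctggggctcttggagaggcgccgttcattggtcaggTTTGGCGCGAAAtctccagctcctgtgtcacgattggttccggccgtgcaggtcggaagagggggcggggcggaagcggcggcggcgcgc

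PCNA, chr20:5126623-5126872, minus strand: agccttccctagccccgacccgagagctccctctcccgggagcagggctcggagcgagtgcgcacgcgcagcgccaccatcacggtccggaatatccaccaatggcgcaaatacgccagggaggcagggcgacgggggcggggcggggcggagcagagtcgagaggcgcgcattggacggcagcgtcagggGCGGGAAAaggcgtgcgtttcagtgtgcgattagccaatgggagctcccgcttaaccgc

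TYMS, chr18:657403-657652, plus strand: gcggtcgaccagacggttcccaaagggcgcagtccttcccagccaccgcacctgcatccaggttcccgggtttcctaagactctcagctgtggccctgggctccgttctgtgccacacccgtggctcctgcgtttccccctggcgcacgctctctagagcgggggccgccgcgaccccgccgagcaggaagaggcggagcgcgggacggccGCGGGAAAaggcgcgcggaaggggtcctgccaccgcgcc

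CDC25A, chr3:48188418-48188667, minus strand: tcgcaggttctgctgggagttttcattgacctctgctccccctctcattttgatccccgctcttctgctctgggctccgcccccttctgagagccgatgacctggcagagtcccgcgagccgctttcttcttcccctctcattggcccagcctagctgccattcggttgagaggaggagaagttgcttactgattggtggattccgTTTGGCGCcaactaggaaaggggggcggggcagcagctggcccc

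POLD1, chr19:50384073-50384322, plus strand: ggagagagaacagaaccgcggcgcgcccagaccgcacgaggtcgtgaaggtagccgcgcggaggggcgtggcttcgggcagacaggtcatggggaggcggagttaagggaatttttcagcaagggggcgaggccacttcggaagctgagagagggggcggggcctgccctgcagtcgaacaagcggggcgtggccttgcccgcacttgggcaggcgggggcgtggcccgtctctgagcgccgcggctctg

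The values are FPKM, which are scaled by the length of the transcript and the size of the library. Replicate 2 still differed from the other numbers in a way that followed transcript length, as described below. Levels set side by side between genes are therefore approximate. FPKM summed to 586204, 829739 and 567810 in BDE209 replicates 1, 2 and 3 and to 596725, 819086 and 580098 in DMSO replicates 1, 2 and 3. Both replicate 2 libraries thus stood apart from the other 4 libraries, and they did so in both groups alike. FPKM carry no counts, so that the depth of the libraries in fragments is not known. Of the follicular markers, TG (thyroglobulin) read 0.02 to 0.12 FPKM and PAX8 0.35 to 0.49 over the 6 libraries, while the transcription factors FOXE1 and HHEX read 0.84 to 1.48 and 4.83 to 7.62. Of the epithelial markers, the keratin KRT18 read 36.19 to 55.92 FPKM and KRT8 5.7 to 9, while EPCAM read 1.06 to 1.21. KRT19 read 0 to 0.08 FPKM and CDH1 0 to 0.25, so that the epithelial markers were split as well. The follicular markers were thus split, with TG and PAX8 near 0 and HHEX well above it. PTPRC of immune cells read 0 to 0.02 FPKM, and of the endothelial markers CDH5 read 0.03 to 0.09, PECAM1 0.44 to 0.48 in BDE209 and 0.25 to 0.3 in DMSO, and KDR 1.88 to 2.81, while CD68, which is not restricted to immune cells, read 48.18 to 73.63 FPKM. Fibroblast collagen COL1A1 read 787.17 to 2559.9 FPKM, lowest in both replicate 2 libraries. Of the other mesenchymal markers, VIM read 6816.94 to 9206.88 FPKM and COL1A2 528.88 to 1527.34. THY1 read 197.79 to 276.21 FPKM and PDGFRB 8.84 to 31.16. COL3A1 read 7.53, 1.23 and 7.2 FPKM in BDE209 replicates 1, 2 and 3, against 26.52, 0.93 and 25.84 FPKM in DMSO, and the part of COL3A1 and PECAM1 in the results below was not tested.

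Replication genes were abundant in every library and nearly level between BDE209 and DMSO cells. The 39 members together took 0.259%, 0.216% and 0.266% of the summed FPKM in BDE209 replicates 1, 2 and 3, against 0.258%, 0.22% and 0.264% in DMSO replicates 1, 2 and 3. The groups overlapped, and replicate 2 had the lowest share in both. In bulk RNA, fewer cells in S phase and less of these transcripts per cell cannot be told apart. Of the members, 31 (79.5%) stood above the median level of the 11223 genes tested. The highest was PCNA, the sliding clamp, at 251 ± 51.7 FPKM in BDE209 and 243 ± 45.6 FPKM in DMSO (SD, n = 3 each). The lowest was CCNE1, a cyclin E, at 2.77 ± 0.335 FPKM in BDE209 and 2.39 ± 0.638 FPKM in DMSO (SD, n = 3 each).

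**Figure D1:**
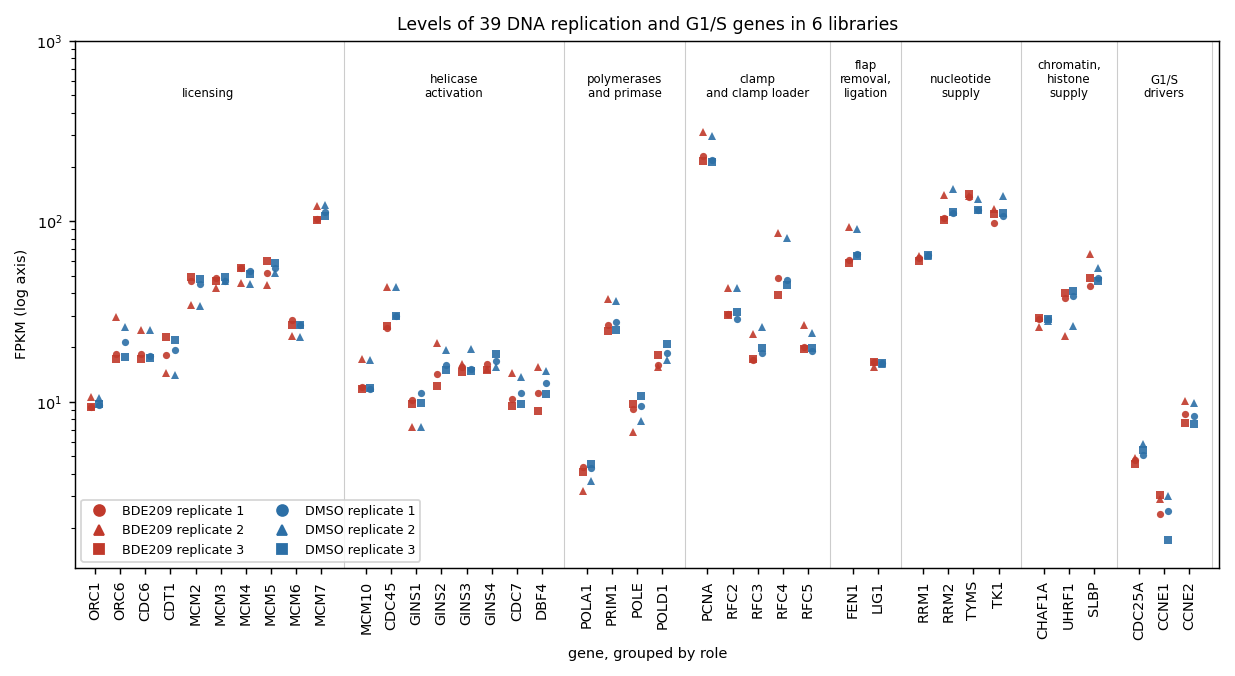
FPKM (log axis) of the 39 members in each library, grouped by role; BDE209 libraries are red and left, DMSO libraries blue and right, with circles, triangles and squares for replicates 1, 2 and 3. Levels run over about the same heights in both groups, from CCNE1 at 2.77 and 2.39 FPKM on average in BDE209 and DMSO to PCNA at 251 and 243 FPKM, and the triangles of replicate 2 stand apart in many genes.

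For no member was the difference between BDE209 and DMSO beyond the spread between replicates by the test used. Limma on log2(FPKM + 1), fitted over all 11223 tested genes with the treatment alone, called 0 of the 39 members and 0 of all genes (0%) at a Benjamini-Hochberg adjusted p under 0.05. At an unadjusted p under 0.05 there were 0 members, against 176 of all genes, or 1.57%. The median difference over the members, BDE209 minus DMSO, was -0.03 log2 units, beside 0.01 over all genes tested. On average 26 members stood lower in BDE209 and 13 higher, against 5231 lower and 5992 higher of all genes tested. The median size of the difference, regardless of sign, was 0.0632 in the members and 0.0856 in all genes tested.

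Because libraries with the same number deviate together, the contrast was also made within each number. With the replicate number as a block, limma again called 0 members and 0 of all genes (0%), and 3 members had an unadjusted p under 0.05, or 7.69%, against 16.5% of all genes. These 3 were TYMS, POLD1 and RFC3, and the smallest adjusted p of a member was 0.249. Within pairs the members' median difference was -0.05, 0.00 and -0.03 log2 units in replicates 1, 2 and 3, beside 0.01, 0.02 and 0.00 over all genes tested. Of the members, 9 were lower in BDE209 in all 3 pairs (23.1%, against 17.3% of all genes) and 5 were higher in all 3 (12.8%, against 21.9%). In 2 members, or 5.13%, the groups did not overlap at all, near the 5.22% found over all genes. TYMS was the 1 member with every BDE209 value on top (3.22% of all genes) and CDC25A the 1 with every BDE209 value below (2% of all genes). The count lower in all pairs became 15 with median-ratio scaling of the libraries, and the count higher in all pairs became 2 with that scaling or quantile normalization. With equal FPKM totals, 11 members were lower and 7 higher in all pairs.

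**Figure D2:**
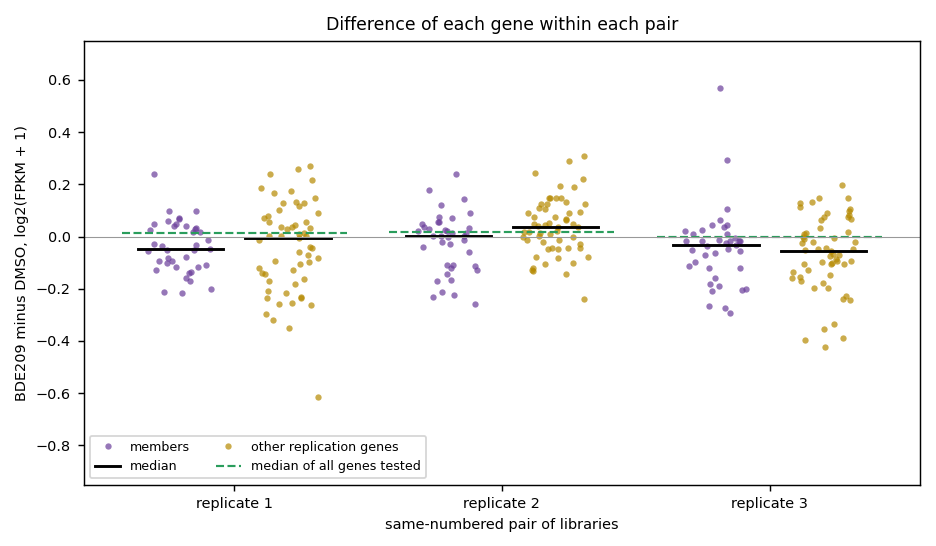
BDE209 minus DMSO difference in log2(FPKM + 1) (vertical axis) of each of 39 members and 57 other replication genes within replicates 1, 2 and 3 (horizontal axis); black bars are medians and dashed green bars the median of all 11223 genes tested. The members' medians are -0.05, 0.00 and -0.03, and single genes spread to both sides of 0 in every pair.

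The intervals of the differences were narrow. With the replicate block, the 95% interval of every one of the 39 members lay inside a 1.5-fold change on the log2(FPKM + 1) scale, where 93.5% of all tested genes did so. With the treatment alone, 28 of the 39 did (71.8%, against 52.9% of all genes), and all 39 lay inside a 2-fold change. On the log2(FPKM + 1) scale, a change of 1.5-fold or more thus lay outside the paired interval of each member. Smaller differences of the size seen in TYMS or CDC25A could not be told from no difference after adjustment over all genes. Adding 1 to each value shrinks the differences of weakly expressed genes, among the members mainly CCNE1 and POLA1. For such genes the 1.5-fold bound need not hold in FPKM itself.

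**Figure D3:**
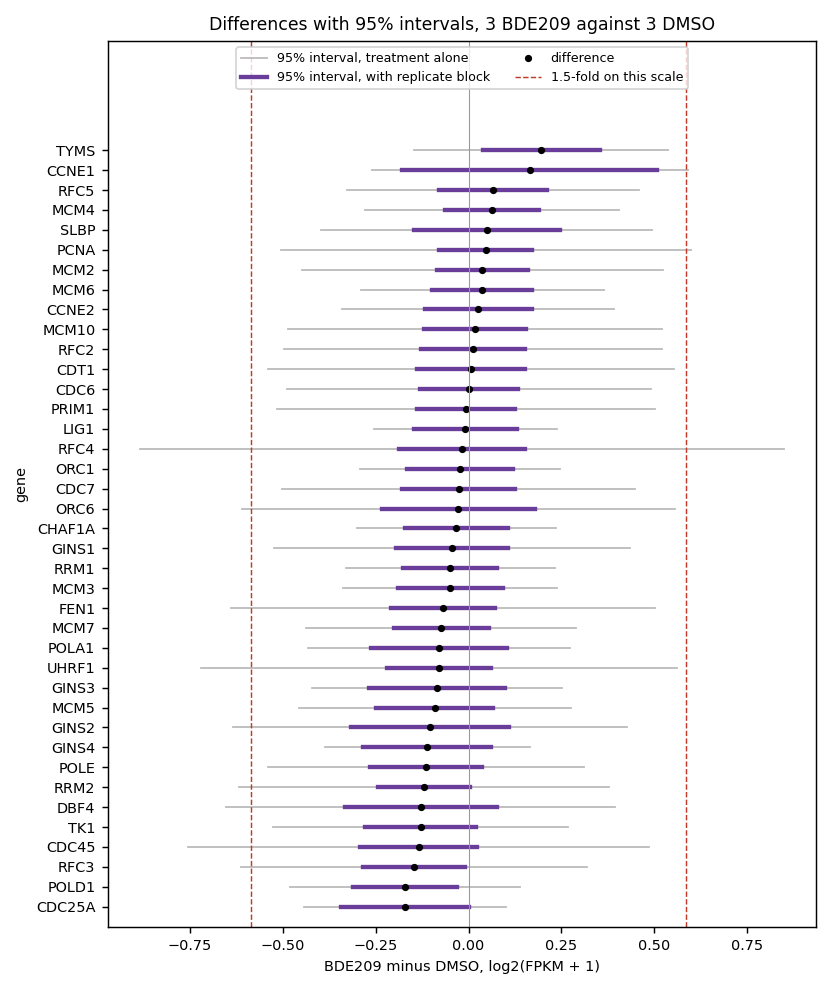
Difference of each member between 3 BDE209 and 3 DMSO libraries in log2(FPKM + 1) (horizontal axis), with 95% intervals from limma with the treatment alone (grey) and with the replicate block (purple), genes from highest to lowest difference. All 39 purple intervals lie between the dashed lines of a 1.5-fold change, and the differences run from 0.20 in TYMS to -0.17 in CDC25A.

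Of the 10 licensing genes, MCM2 and MCM4 were above DMSO in each pair, MCM7 was below it in each, and none was called (median difference -0.01 log2 units). The helicase subunits had unequal levels per length. MCM7 averaged 109 ± 11.1 FPKM in BDE209 and 114 ± 8.70 FPKM in DMSO (SD, n = 3 each), while MCM6 averaged 26.1 ± 2.77 FPKM in BDE209 and 25.4 ± 2.26 FPKM in DMSO (SD, n = 3 each), with MCM2 to MCM5 between them. MCM7 stood at 102.27, 121.32 and 102.09 FPKM in BDE209 replicates 1, 2 and 3, against 111.86, 123.72 and 106.77 FPKM in DMSO replicates 1, 2 and 3. Each BDE209 value was a little below its DMSO partner, but the groups overlapped; the difference was -0.07 log2 units (95% interval with the block -0.20 to 0.05). MCM5 had the smallest p of the licensing genes by a narrow margin, at 51.56, 44.56 and 59.99 FPKM in BDE209 replicates 1, 2 and 3, against 55.13, 51.80 and 58.51 FPKM in DMSO replicates 1, 2 and 3, a difference of -0.09 (limma with the block, adjusted p = 0.504). Its direction was not shared by all pairs. MCM7 and AP4M1 share exon bases on opposite strands (GENCODE v29), which leaves the MCM7 level uncertain. The same holds for MCM2, which shares 1113 exon bases with the antisense transcript AC023593.1. MCM2 and MCM4 were higher in all 3 pairs, by 0.04 and 0.06, and MCM3 and MCM6 differed by -0.05 and 0.04.

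The loaders and origin proteins were level as well. CDC6, the ATPase that brings the helicase to origins, averaged 20.2 ± 4.18 FPKM in BDE209 and 20.2 ± 4.22 FPKM in DMSO (SD, n = 3 each), with overlapping groups and a 95% interval with the block of -0.13 to 0.13. CDT1, its partner, differed by 0.01. Geminin (GMNN), the inhibitor of CDT1 and no member, had an FPKM that made the ratio of CDT1 to GMNN 0.573, 0.207 and 0.687 in BDE209 replicates 1, 2 and 3, against 0.577, 0.224 and 0.609 in DMSO. That ratio was lowest in replicate 2 of both groups and did not separate the groups. The mean of replicate 2 minus that of replicates 1 and 3 was 0.95 log2 units in GMNN and -0.50 in CDT1. The GMNN transcript is shorter, at 1262 bases against 3240 for CDT1, and the part of length in the ratio was not tested. The origin subunits ORC1 and ORC6 differed by -0.02 and -0.03.

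Among the 8 genes that activate the helicase, 7 stood lower in BDE209 on average, where 5231 of all 11223 genes did so. GINS4 alone of the 8 stood lower in all 3 pairs, and none was called (median difference -0.09). CDC45, which joins the helicase when an origin fires, had the smallest p of this role, at 25.59, 43.28 and 26.16 FPKM in BDE209 replicates 1, 2 and 3, against 29.91, 43.21 and 29.94 FPKM in DMSO replicates 1, 2 and 3. It was lower in BDE209 in replicates 1 and 3 and about equal in replicate 2; the difference was -0.13, or -0.22, 0.00 and -0.19 in pairs 1, 2 and 3 (limma with the block, adjusted p = 0.352). Of the GINS subunits, which bind beside CDC45, GINS1, GINS2, GINS3 and GINS4 differed by -0.04, -0.10, -0.08 and -0.11. GINS2 differed by -0.16, 0.12 and -0.28 in pairs 1, 2 and 3, so that replicate 2 went the other way. The kinase CDC7 and its activator DBF4 differed by -0.03 and -0.13, and MCM10, a scaffold of helicase activation, by 0.02. GINS4 and its antisense transcripts, and DBF4 and SLC25A40, overlap in their exons (GENCODE v29), and no strand use is stated for the counting.

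All 4 polymerase and primase genes stood lower in BDE209 on average, where 5231 of all 11223 genes did so. POLD1 and POLE were lower in all 3 pairs, and none of the 4 was called (median difference -0.10). POLD1, the catalytic subunit of the polymerase that copies mainly the lagging strand, read 15.97, 15.59 and 18.04 FPKM in BDE209 replicates 1, 2 and 3, against 18.50, 16.92 and 20.89 FPKM in DMSO replicates 1, 2 and 3. Each BDE209 value was below the DMSO value of its number, although the groups overlapped. POLD1 averaged 16.5 ± 1.32 FPKM in BDE209 and 18.8 ± 2.00 FPKM in DMSO (SD, n = 3 each); the difference was -0.17, or -0.20, -0.11 and -0.20 in the pairs (limma with the block, unadjusted p = 0.0235, adjusted p = 0.251). POLE, the leading-strand polymerase, differed by -0.11. POLA1, which extends the primers, and PRIM1, the primase that makes them, differed by -0.08 and -0.01. PRIM1 shares 33 exon bases with NACA, an abundant gene on the same strand, and POLD1 shares 426 with AC020909.1, so that these levels are uncertain.

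The clamp and its loader showed no common direction (5 genes, median difference 0.01). PCNA, whose ring holds the polymerases on DNA, read 228.67, 310.45 and 214.90 FPKM in BDE209 replicates 1, 2 and 3, against 219.66, 295.43 and 213.52 FPKM in DMSO replicates 1, 2 and 3. The BDE209 value was above the DMSO value in all 3 pairs by small margins, the groups overlapped, and the difference was 0.05 (95% interval with the block -0.08 to 0.17). RFC3, a loader subunit, read 17.09, 23.78 and 17.17 FPKM in BDE209 replicates 1, 2 and 3, against 18.51, 26.08 and 19.95 FPKM in DMSO replicates 1, 2 and 3. It was lower in BDE209 in all 3 pairs, with differences of -0.11, -0.13 and -0.21, overlapping groups and a mean difference of -0.15 (limma with the block, unadjusted p = 0.039, adjusted p = 0.284). Without DMSO replicate 2 its difference was -0.01 and without BDE209 replicate 2 it was -0.30, since each leaves 1 group without the higher values of replicate 2. RFC5, another subunit and the third highest difference of all members, read 20.20, 26.46 and 19.55 FPKM in BDE209 replicates 1, 2 and 3, against 19.16, 23.88 and 19.77 FPKM in DMSO replicates 1, 2 and 3. Its difference was 0.07, with pair 3 slightly below 0. RFC5 shares 186 exon bases with WSB2, read at 49.99 to 66.94 FPKM, on the opposite strand, so that the RFC5 level is uncertain. RFC2 and RFC4 differed by 0.01 and -0.02. PCNA has 3 named pseudogenes in GENCODE v29 and RFC3 and RFC5 have 1 each, and how reads that match several genes were handled is not stated.

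FEN1, which cuts the flaps of Okazaki fragments, and LIG1, which seals them, were not called either. FEN1 read 60.78, 92.53 and 58.93 FPKM in BDE209 replicates 1, 2 and 3, against 65.99, 90.51 and 64.17 FPKM in DMSO replicates 1, 2 and 3. It was lower in BDE209 in replicates 1 and 3 and higher in replicate 2, a difference of -0.07 (limma with the block, adjusted p = 0.562). FEN1 and TMEM258 share 166 exon bases on opposite strands, and FEN1 and FADS2 share 49 on the same strand. FADS2 read 35.66, 21.1 and 38.19 FPKM in BDE209 replicates 1, 2 and 3, against 50.48, 22.65 and 50.53 FPKM in DMSO. Its part in the FEN1 values was not tested. LIG1 averaged 16.3 ± 0.617 FPKM in BDE209 and 16.4 ± 0.101 FPKM in DMSO (SD, n = 3 each), with a 95% interval with the block of -0.15 to 0.13.

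The 4 nucleotide supply genes went apart. TYMS, thymidylate synthase, which makes the thymidine nucleotide of DNA, had the highest difference of all members and read 136.03, 137.50 and 140.71 FPKM in BDE209 replicates 1, 2 and 3, against 115.09, 132.21 and 114.79 FPKM in DMSO replicates 1, 2 and 3. All 3 BDE209 values were above all 3 DMSO values, by the least in replicate 2. TYMS averaged 138 ± 2.39 FPKM in BDE209 and 121 ± 9.97 FPKM in DMSO (SD, n = 3 each); the difference was 0.20 log2 units, or 0.24, 0.06 and 0.29 in the pairs (limma with the block, 95% interval 0.04 to 0.35, unadjusted p = 0.0224, adjusted p = 0.249; adjusted p = 1.00 without it). The difference kept its sign without any one library, at 0.16 to 0.26. The exons of TYMS and ENOSF1 overlap on opposite strands over 967 bases, and without a stated strand their reads cannot be told apart. ENOSF1 read 10.12, 6.55 and 8.91 FPKM in BDE209 replicates 1, 2 and 3, against 8.25, 5.92 and 8.41 FPKM in DMSO. It too was higher in BDE209 in every pair, at levels far under those of TYMS, and its part in the TYMS values was not tested.

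The other 3 genes of this role stood lower. RRM1 and RRM2, the large and small subunits of ribonucleotide reductase, differed by -0.05 and -0.12. TK1, the thymidine kinase of the salvage route, differed by -0.13, or -0.14, -0.23 and -0.02 in the pairs. Without DMSO replicate 2 the TK1 difference was -0.02 and without BDE209 replicate 2 it was -0.19. Each leaves 1 group without the higher TK1 value of replicate 2. RRM2 and TK1 were lower in all 3 pairs, with adjusted p of 0.312 and 0.346 by limma with the block. RRM2 has 3 and TYMS 2 named pseudogenes in GENCODE v29. RRM2 also shares 1077 exon bases with AC007240.1 on the same strand, so that its level is uncertain.

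**Figure D4:**
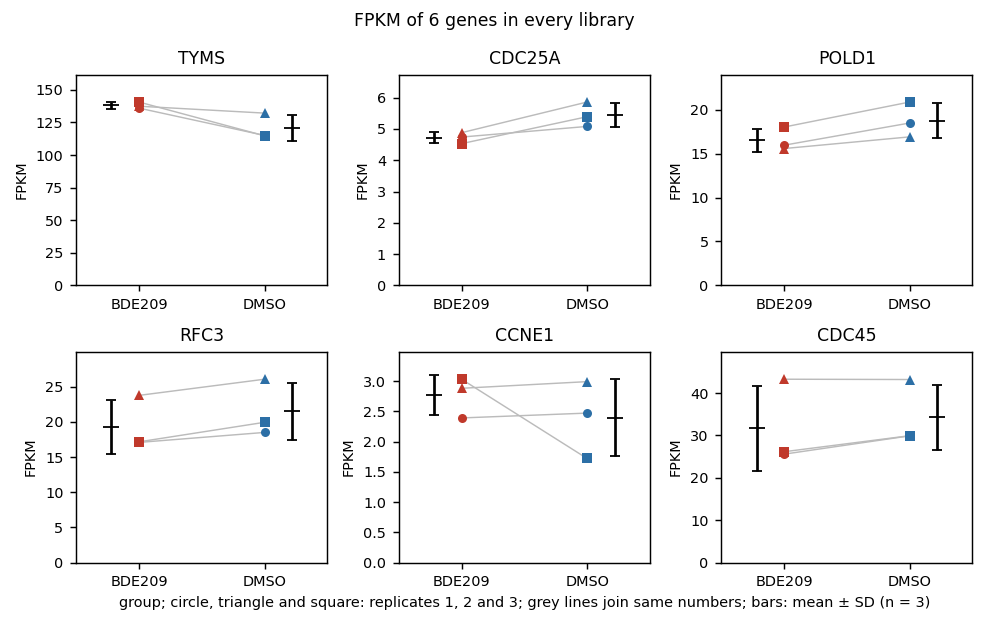
FPKM (linear axes from 0) of TYMS, CDC25A, POLD1, RFC3, CCNE1 and CDC45 in every library, BDE209 left and DMSO right; grey lines join libraries of the same number and black bars are mean ± SD of 3. TYMS averages 138 and 121 FPKM in BDE209 and DMSO and CDC25A 4.72 and 5.44 FPKM, without overlap, while the other 4 genes overlap.

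Of the chromatin genes, UHRF1, which carries DNA methylation through replication, had the smallest p and read 37.31, 23.24 and 40.02 FPKM in BDE209 replicates 1, 2 and 3, against 38.31, 26.27 and 40.99 FPKM in DMSO replicates 1, 2 and 3. It was lower in BDE209 in all 3 pairs, by at most 0.17 log2 units, a difference of -0.08 (limma with the block, adjusted p = 0.505). CHAF1A, which deposits histones behind the fork, differed by -0.03. SLBP, which binds histone mRNA, differed by 0.05, or -0.14, 0.24 and 0.04 in the pairs, so that the pairs did not share a direction.

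The 3 drivers of S phase entry were among the members with low levels. CDC25A, the phosphatase that activates the cyclin E and cyclin A kinases, had the lowest difference of all members and read 4.74, 4.88 and 4.53 FPKM in BDE209 replicates 1, 2 and 3, against 5.08, 5.86 and 5.39 FPKM in DMSO replicates 1, 2 and 3. All 3 BDE209 values were below all 3 DMSO values. CDC25A averaged 4.72 ± 0.176 FPKM in BDE209 and 5.44 ± 0.393 FPKM in DMSO (SD, n = 3 each); the difference was -0.17, or -0.08, -0.22 and -0.21 in the pairs (limma with the block, 95% interval -0.34 to 0.00, adjusted p = 0.306; adjusted p = 1.00 without it). It kept its sign without any one library, at -0.21 to -0.13.

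CCNE1, a cyclin E that starts S phase, read 2.39, 2.88 and 3.03 FPKM in BDE209 replicates 1, 2 and 3, against 2.47, 2.99 and 1.72 FPKM in DMSO replicates 1, 2 and 3. BDE209 and DMSO values overlapped, and a single library decided the difference. It was 0.16, with -0.03, -0.04 and 0.57 in the pairs, and 0.01 without DMSO replicate 3. Without DMSO replicate 2 it was 0.29. CCNE2, the other cyclin E gene, differed by 0.03 in total and by 0.03, 0.03 and 0.03 in the pairs; its exons overlap those of INTS8 on the opposite strand over 1629 bases.

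Other genes of the replication pathway gave a like picture. Of 58 further genes, from origin subunits to nucleotide kinases, 57 were in the tables and all 57 were tested. Limma called 0 of them, with or without the block (0% of all genes in both fits), and 0 without and 5 with the block had an unadjusted p under 0.05 (1.57% and 16.5% of all genes). Their median difference was -0.01 log2 units, with 10 higher and 11 lower in all 3 pairs (21.9% and 17.3% of all genes). The 6 with the smallest p under the block are given next.

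POLE2, a subunit of the leading-strand polymerase, read 12.69, 20.56 and 11.87 FPKM in BDE209 replicates 1, 2 and 3, against 14.54, 22.83 and 13.75 FPKM in DMSO replicates 1, 2 and 3, a difference of -0.17. DBF4B, a second activator of CDC7, read 7.48, 7.64 and 7.76 FPKM in BDE209 replicates 1, 2 and 3, against 9.13, 8.45 and 9.03 FPKM in DMSO replicates 1, 2 and 3. DBF4B was the 1 gene of this list whose groups did not overlap (5.22% of all genes), with a difference of -0.19 (limma with the block, adjusted p = 0.249). The maintenance methyltransferase DNMT1 differed by -0.13, CHTF8 of an alternative clamp loader by -0.29, and SAMHD1, which breaks down nucleotides, by 0.18. The CHTF8 difference was -0.06 without BDE209 replicate 2 and -0.55 without BDE209 replicate 3. CHTF8 shares 70 exon bases with UTP4, read at 45.79 to 62.37 FPKM, on the opposite strand, so that its level is uncertain.

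The sixth, DTYMK, the thymidylate kinase that acts after TYMS, read 72.74, 138.50 and 67.83 FPKM in BDE209 replicates 1, 2 and 3, against 87.35, 140.43 and 89.01 FPKM in DMSO replicates 1, 2 and 3. It was lower in BDE209 in replicates 1 and 3 and about equal in replicate 2, a difference of -0.22, which was -0.55 without BDE209 replicate 2 and close to 0 (-0.00077) without DMSO replicate 2. Fitted on replicates 1 and 3 alone, with 2 libraries a group, limma called 764 genes (6.81%), of which 502 were higher in BDE209 (4.47%) and 262 lower (2.33%). Among them were 0 of the 39 members (2 had an unadjusted p under 0.05, against 21.9% of all genes) and 2 of the 57 further genes. These were DTYMK, at -0.32 (adjusted p = 0.0461), and CCNA2, the cyclin A of S phase and G2, at -0.39 (adjusted p = 0.0261). CCNA2, chosen for mention after its values were seen, read 54.15, 86.84 and 50.69 FPKM in BDE209 replicates 1, 2 and 3, against 69.39, 82.97 and 68.26 FPKM in DMSO replicates 1, 2 and 3. Its exons overlap those of EXOSC9 on the opposite strand over 254 bases.

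In replicates 1 and 3 alone, 19 of the 39 members (48.7%) were lower in both pairs, against 35.1% of all genes, and 6 were higher in both. Whether the effect differed between replicate 2 and the other numbers was tested in 1 model over all genes. Replicate 2 gives a lone BDE209 and a lone DMSO library, which are assumed to vary like those of the other numbers. Limma called 0 of the 39 members and 0 of the 57 further genes in this test, against 69 of all genes, or 0.615%, and 0 members and 7 further genes had an unadjusted p under 0.05, against 11.1% of all genes. For CCNA2 the adjusted p of this difference was 0.244 and for DTYMK it was 0.448.

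In FPKM as deposited, most members differed more between replicate 2 and the other numbers than between BDE209 and DMSO, with TYMS, CDC25A, POLD1, GINS4 and RRM1 as exceptions. Relative to replicates 1 and 3, 25 members stood higher in replicate 2 and 14 stood lower, each mean taken over both groups together. The median shift was 0.22 log2 units, beside -0.10 over all genes tested. The FPKM totals of replicate 2 were the largest, and with equal FPKM totals the direction turned, to a median of -0.25 with 6 members higher and 33 lower, beside -0.52 over all genes. Relative to the median of all genes the members stood higher by 0.32 as deposited and by 0.27 with equal totals. With median-ratio scaling this was 0.32, and with quantile normalization it was smaller, at 0.15. As deposited, the shift was highest in RFC4 (0.89), CDC45 (0.62), FEN1 (0.55) and ORC6 (0.54), and lowest in UHRF1 (-0.64), CDT1 (-0.50), MCM2 (-0.45) and GINS1 (-0.45). Subunits of one complex did not always shift together. As deposited, the loader subunits RFC2, RFC3, RFC4 and RFC5 all stood higher (0.48, 0.44, 0.89 and 0.34), while RFC1, no member, stood lower (-0.27). MCM2, MCM3, MCM4, MCM5 and MCM6 all stood lower (-0.45, -0.10, -0.23, -0.22 and -0.23). The shift of MCM7 (0.21) was above those of MCM2 to MCM6, and that of GINS2 (0.48) was above that of GINS1.

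The shift followed transcript length in the members much as in all genes. Spearman's rho between the shift and the longest coding transcript of each gene was -0.52 over the 39 members and -0.54 over 11204 genes, and with the median transcript length it was -0.41 and -0.37. Genes within a library share its preparation and depth, so that these values are descriptions of 6 libraries. The relation was loose. CDC6 and MCM10, with long transcripts, had shifts of 0.47 and 0.49, and DBF4 and RRM2 had 0.45 and 0.43, while the shorter CDT1 had -0.50.

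**Figure D5:**
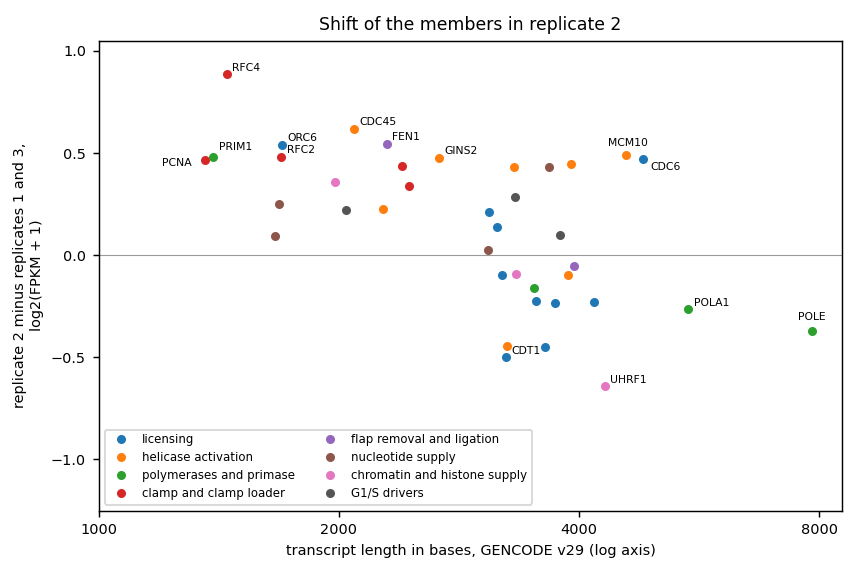
Mean of the 2 replicate 2 libraries minus the mean of the other 4 libraries in log2(FPKM + 1) (vertical axis) against transcript length (horizontal log axis) for the 39 members, coloured by role. Short transcripts such as RFC4 (shift 0.89) tend to stand above long ones such as POLE (-0.37), with wide scatter at middle lengths and CDC6 and MCM10 high.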

How the data were processed

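The deposited files give 1 FPKM value per human Ensembl identifier and library, per the file headers. The submitters' processing notes name Bowtie 0.12.2, Bowtie2 and RSEM, and as builds mm8 and mm10, which are of the mouse. A human build is not given in the sources used here, nor are strand use and the treatment of multiply matching reads. The 40 rows of 20 repeated identifiers were left out of the 16614, which left 16574 genes, 16535 with a symbol.

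Limma 3.58.1 in R 4.3.3 (trend and robust options) was run on log2(FPKM + 1) with the treatment alone, over the 11223 genes that reached 1 FPKM in 3 or more libraries. P-values were adjusted by Benjamini-Hochberg over all of them, with a threshold of 0.05. The fit was also run on simulated data, which lacked the gene-by-gene shift of replicate 2. That run therefore gives no measure of the power of the fit in these libraries. FPKM are not counts, so that a count test was not used. Differences are BDE209 minus DMSO.

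The replicate numbers were taken to pair the samples. Deviations from the group means of same-numbered BDE209 and DMSO libraries had correlations across genes of 0.738 (replicate 1), 0.875 (replicate 2) and 0.824 (replicate 3); between differing numbers, replicates 1 and 3 also correlated (0.646 and 0.644) and replicate 2 ran against both. The labels do not say what a number shares. A fit with the number as a block is therefore given beside the main one.

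Members and lists were chosen with earlier results of these data known. All 39 members are accounted for. Values of every library are given for the member with the smallest p under the block in each role, for members whose groups do not overlap, for the 3 highest and 3 lowest differences, for the highest and lowest level, for TYMS and CDC25A, and for MCM7 and CCNA2, which were added after their values were seen. Of the wider list, the 6 with the smallest p under the block are named. Transcript lengths and overlapping exons come from GENCODE v29 (GRCh38); the annotation behind the deposited values may be another.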

Additional observations from a re-analysis of the deposited data

How the results depend on the processing

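The counts of 0 called members held under all 15 alternatives (37 members were tested at a minimum FPKM of 5, without POLA1 and CCNE1), which covered the pseudocount, the filter, limma's options, 3 scalings, the replicate block, each library left out and replicates 1 and 3 alone. The replicate block neither added nor removed a call: 0 members and 0 genes were called with it. Over all genes, the call count of 0 moved to 764 in replicates 1 and 3 alone and was 0 to 1 with one library left out (1 without BDE209 replicate 2). The members' median difference of -0.03 ranged from -0.12 without BDE209 replicate 2 to -0.0017 without DMSO replicate 2, both of which leave the shift of replicate 2 in 1 group. That of the further genes ranged from -0.071 to 0.041 with one library left out and was -0.071 in replicates 1 and 3 alone, where 2 of them were called. Members with one sign in all pairs numbered 14, and 21 to 25 where leaving out a library left 2 pairs (25 in replicates 1 and 3 alone). Those lower in all pairs numbered 12 to 19 then, and 19 in replicates 1 and 3 alone. With median-ratio scaling they numbered 15, and with quantile normalization or equal FPKM totals 11. Those higher in all pairs numbered 6 to 9 where a library was left out. They numbered 2 with quantile normalization or median-ratio scaling and 7 with equal FPKM totals. The cause was not tested. With scalings chosen after seeing the data, the members' median shift in replicate 2 of 0.22 was -0.25 with equal FPKM totals, 0.15 with quantile normalization and 0.32 with median-ratio scaling. The test of a difference in replicate 2 called 0 members under its 2 alternatives.

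The sign held under every alternative in 9 of the 39 members and turned under at least 1 in the others, with no call on either side. The genes below include POLE2, DNMT1 and GMNN, which are not members. With quantile normalization the signs that turned were those of CDC6 -0.0079, CDT1 -0.0068, MCM10 -0.0069, CCNE2 -0.013. With equal FPKM totals they were those of PRIM1 0.0048, LIG1 0.0041, GMNN 0.0028. With median-ratio scaling they were CDC6 -0.022, CDT1 -0.017, MCM10 -0.0056, RFC2 -0.013. In replicates 1 and 3 alone they were CDT1 -0.0089, GINS3 0.0030, LIG1 0.018, CHAF1A 0.0057, SLBP -0.048. With one library left out the differences that crossed 0 ranged as follows: ORC1 -0.079 to 0.012, ORC6 -0.26 to 0.11, CDC6 -0.15 to 0.16, CDT1 -0.17 to 0.17, MCM2 -0.11 to 0.19, MCM3 -0.085 to 0.0012, MCM4 -0.0017 to 0.15, MCM5 -0.20 to 0.014, MCM6 -0.036 to 0.12, MCM10 -0.15 to 0.18, CDC45 -0.37 to 0.038, GINS1 -0.21 to 0.092, GINS2 -0.32 to 0.055, GINS3 -0.15 to 0.034, CDC7 -0.19 to 0.10, DBF4 -0.33 to 0.046, POLA1 -0.15 to 0.025, PRIM1 -0.18 to 0.14, POLE -0.23 to 0.023, PCNA -0.12 to 0.19, RFC2 -0.14 to 0.18, RFC4 -0.34 to 0.25, RFC5 -0.065 to 0.16, FEN1 -0.28 to 0.088, LIG1 -0.025 to 0.022, RRM2 -0.27 to 0.022, CHAF1A -0.065 to 0.017, UHRF1 -0.27 to 0.16, SLBP -0.12 to 0.17, CCNE2 -0.069 to 0.12, POLE2 -0.41 to 0.043, DNMT1 -0.31 to 0.037, GMNN -0.37 to 0.27. MCM7, GINS4, POLD1, RFC3, RRM1, TYMS, TK1, CDC25A and CCNE1 kept their sign when any one library was left out. FPKM without counts give no depth, and with 3 libraries a group the precision rests on the spread between them.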
